A study of Mus musculus with 6 samples.

Results

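The teneurins and the latrophilins were examined in RNA sequencing of mouse embryonic stem cells (mESCs) with and without the *Wnt6* anchor region. They are 7 of the 55385 genes counted, with 4 teneurins (*Tenm1* to *Tenm4*) and 3 latrophilins (*Adgrl1* to *Adgrl3*). The members were chosen by gene name, but the families were selected on a value already known from these libraries, the higher level of *Tenm3* in homozygous deletion cells. Comparisons that include the homozygous libraries are therefore given as descriptions, with fold changes and standard errors and with no p-value for a member. Of the 7 genes, 6 passed the filter on low counts, at least 10 counts in at least 2 libraries, and *Tenm2* did not.

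Teneurins are large single-pass membrane proteins that form dimers and present a compact folded extracellular region, made around a barrel of YD repeats, to the cell opposite. Latrophilins are adhesion G protein-coupled receptors that were first known as receptors of a black widow spider toxin, and they bind teneurins across the gap between 2 cells. They also bind the FLRT family of leucine-rich repeat proteins. The ligand and receptor pair is best known from neurons, where it guides axon matching and synapse formation, and teneurins also take part in gastrulation and other early steps of the embryo.

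RNA came from G4 cells, a hybrid line of 129/Sv and C57BL/6 mice, maintained with LIF on CD1 feeder cells. The groups were wild-type cells and CRISPR-Cas9 edited cells with the *Wnt6* deletion on 1 allele (heterozygous) or on both (homozygous), with 2 libraries per genotype in the labels where the methods state triplicates. Edited ESC clones were screened individually, and how many of them stand behind these libraries is not given in the sources used here. Effects of the deletion and differences between clones cannot be told apart, and p-values measure the spread between these libraries, which may be technical. The libraries held between 23813912 and 28964706 counts, so that 3 counts corresponded to between 0.102 and 0.131 CPM (counts scaled to the library total with TMM normalization factors). *Wnt6* itself was counted 11 and 13 times in the wild-type pair, 6 and 4 times in the heterozygous pair and 0 and 0 times in the homozygous pair.

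In wild-type cells the families were led by 1 receptor and 1 ligand. Levels of different genes were compared as CPM per kilobase of annotated exon. *Adgrl1* stood highest at 21.4 ± 1.16 CPM per kb, followed by *Adgrl2* at 7.53 ± 0.397 and *Tenm3* at 3.25 ± 0.0529 (SD, n = 2 each). *Tenm4* was at 0.989 ± 0.0245, *Adgrl3* at 0.130 ± 0.0248, *Tenm1* at 0.0395 ± 0.00914 and *Tenm2* at 0.00979 ± 0.00545 CPM per kb (SD, n = 2 each). No neighbors in this order overlapped between the wild-type libraries, and the order was the same when the longest transcript replaced all exons. The gap between the top 2 genes depended on that choice, with *Adgrl1* at 22.4 and *Adgrl2* at 17.7 CPM per kb of the longest transcript. On the CPM scale, *Adgrl1* lay above 95.9% and *Tenm3* above 79.5% of the 28610 genes with any wild-type count, while *Tenm2* lay above 30.7%. Feeder cells and mESCs were sequenced together, and in such bulk RNA fewer cells of a type cannot be told apart from less RNA per cell.

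**Figure D1:**
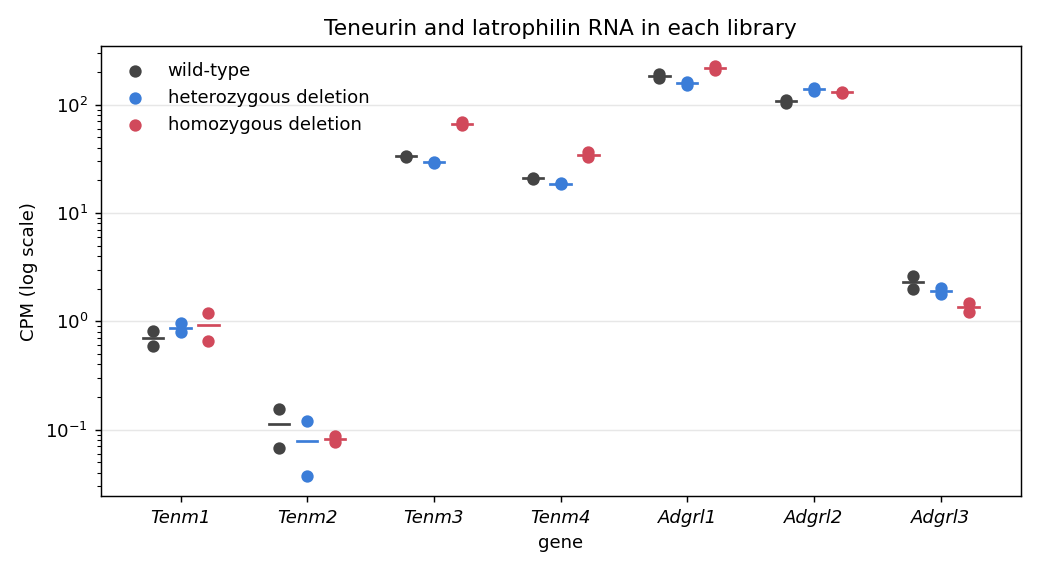
CPM of the 7 genes on a log axis, with 1 point per library and a line at the mean of each genotype. The homozygous libraries stand above the others for *Tenm3* (64.4 and 68.8 CPM) and *Tenm4* (32.9 and 36.2), and *Tenm2* stays under 0.157 CPM throughout.

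*Tenm3* and *Tenm4* were the expressed ligands, and both were highest in homozygous deletion cells. *Tenm3* (ENSMUSG00000031561; chromosome 8 of GRCm38, 48227682 to 48843951, minus strand) guides the matching of axons and their targets in the visual system and hippocampus. It was counted 989 and 840 times in the wild-type pair, 737 and 768 times in the heterozygous pair and 1578 and 1678 times in the homozygous pair. The genotypes did not overlap on the CPM scale, with 33.6 and 32.9, 29.6 and 28.8, and 68.8 and 64.4 CPM in the same order. The fitted log2 fold change of homozygous against wild-type cells was 1.001 (standard error, SE, 0.058), which is 2.002-fold, and against heterozygous cells it was 1.19 (SE 0.0593). In heterozygous against wild-type cells it was -0.19 (SE 0.0628, 95% interval -0.32 to -0.056), and its quasi-likelihood test in edgeR, adjusted by Benjamini-Hochberg, gave an adjusted p of 0.102. *Tenm3* therefore did not pass the test in heterozygous cells. Its fold change sits at the edge of the study's fold threshold, an absolute log2 fold change above 1, and it ran from 0.94 to 1.05 over 14 alternatives, above that threshold in 9 and at or below it in 5.

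*Tenm4* (ENSMUSG00000048078; chromosome 7, 96171246 to 96911093, plus strand), a teneurin that takes part in mesoderm formation in the mouse embryo and in myelination, followed the same order at a lower level. It was counted 622 and 522 times in the wild-type pair, 472 and 489 times in the heterozygous pair and 829 and 857 times in the homozygous pair. As CPM these were 21.2 and 20.4, 18.9 and 18.4, and 36.2 and 32.9, again with no overlap between genotypes. The log2 fold change was 0.73 (SE 0.0708), or 1.66-fold, in homozygous against wild-type cells and 0.89 (SE 0.0726) against heterozygous cells. In heterozygous against wild-type cells it was -0.16 (SE 0.0762, 95% interval -0.32 to 0.0018, adjusted p = 0.314 in edgeR). Unlike *Tenm3*, *Tenm4* does not lie on chromosome 8.

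The other 2 teneurins were close to the limit of the depth. *Tenm1* (ENSMUSG00000016150; chromosome X, 42527866 to 43429126, minus strand), the X-linked member, was counted 24 and 15 times in the wild-type pair, 24 and 21 times in the heterozygous pair and 15 and 31 times in the homozygous pair. The groups overlapped, and the highest library was homozygous at 1.19 CPM while the lowest was wild-type at 0.587 CPM. Its log2 fold change was 0.30 (95% interval -0.45 to 1.05, adjusted p = 0.758 in edgeR) in heterozygous and 0.40 (95% interval -0.35 to 1.15) in homozygous against wild-type cells. Both intervals held values of either sign, so the direction of a change was not determined. The heterozygous value ran from 0.098 without wild-type replicate 2 to 0.57 without wild-type replicate 1. *Tenm2* (ENSMUSG00000049336; chromosome 11, 36006656 to 37235964, minus strand), the teneurin first described as the latrophilin ligand Lasso, was counted at most 4 times in any library, with pairs of 2 and 4, 3 and 1, and 2 and 2. No fold change is given for it at this depth.

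To place the 2 expressed teneurins and the leading receptor in sequence, the bases before their RefSeq starts (GRCm38.p6) are shown, with CpG dinucleotides in capitals. They are printed because *Tenm3* and *Tenm4* were high in the same libraries while *Adgrl1* shares a chromosome with *Tenm3*. The *Tenm3* stretch, chr8:48674723-48674940 on the minus strand, is the part of the window that no annotated exon covers, and its start lies 169261 bases inside the annotated gene. The *Tenm4* stretches are chr7:96170994-96171243, just before the gene, and chr7:96211421-96211670, in an intron, both on the plus strand. The *Adgrl1* stretch is chr8:83899848-83900097 on the plus strand, just before the gene.
Tenm3: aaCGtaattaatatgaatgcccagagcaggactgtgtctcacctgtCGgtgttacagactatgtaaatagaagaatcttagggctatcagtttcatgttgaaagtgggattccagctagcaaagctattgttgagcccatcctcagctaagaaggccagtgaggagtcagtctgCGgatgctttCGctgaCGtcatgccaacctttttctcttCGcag
Tenm4 first start: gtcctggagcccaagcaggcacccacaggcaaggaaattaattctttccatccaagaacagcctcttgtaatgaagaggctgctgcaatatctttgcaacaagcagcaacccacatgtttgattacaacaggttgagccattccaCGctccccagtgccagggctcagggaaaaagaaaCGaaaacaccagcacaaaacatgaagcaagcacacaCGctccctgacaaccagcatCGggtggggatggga
Tenm4 inner start: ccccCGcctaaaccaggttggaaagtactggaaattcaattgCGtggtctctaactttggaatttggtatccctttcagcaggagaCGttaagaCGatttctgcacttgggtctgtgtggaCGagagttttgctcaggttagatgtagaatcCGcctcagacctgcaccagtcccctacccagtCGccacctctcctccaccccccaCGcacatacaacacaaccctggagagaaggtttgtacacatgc
Adgrl1: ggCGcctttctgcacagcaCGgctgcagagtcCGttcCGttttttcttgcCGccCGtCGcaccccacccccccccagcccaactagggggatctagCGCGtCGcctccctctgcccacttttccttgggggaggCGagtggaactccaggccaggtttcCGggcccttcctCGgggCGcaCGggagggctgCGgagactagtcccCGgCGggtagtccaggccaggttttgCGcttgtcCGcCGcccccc

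Of these windows the one before *Adgrl1* held the most CpGs. In the 250 bases before each start, *Tenm3* had 8 CpGs, *Tenm4* 4 and 8, and *Adgrl1* 21, where the median promoter held 6. For *Tenm3*, 6 of the 8 lie in the 218 bases printed, which no annotated exon covers. Of 32817 promoter windows of the same length, 43.0% held at least 8, 62.2% at least 4 and 16.3% at least 21. The *Adgrl1* window held the letters GGGCGG on either strand, a GC box that contains a CpG, as did 32.7% of all windows. Neither TATAAA nor CCAAT was found in any of these 4 windows on either strand, letters that 12.4% and 33.8% of all windows held. The counts per gene do not tell which start was used.

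Of the receptors, *Adgrl1* and *Adgrl2* were abundant and moved apart in heterozygous cells. *Adgrl1* (ENSMUSG00000013033; chromosome 8, 83900105 to 83941954, plus strand), the main neuronal target of the spider toxin, was counted 5604 and 4511 times in the wild-type pair, 4021 and 4047 times in the heterozygous pair and 4763 and 5856 times in the homozygous pair. As CPM these were 190.6 and 176.5, 161.5 and 151.9, and 207.8 and 224.9, with no overlap between genotypes. *Adgrl1* fell in heterozygous cells by 0.23 on the log2 scale (SE 0.051, adjusted p = 0.00963 in edgeR and between 2.23e-05 and 0.217 under its alternatives). The call was lost without wild-type replicate 1, where the log2 fold change was -0.17, and without heterozygous replicate 2, where it was -0.19. In homozygous cells *Adgrl1* was above wild-type by a log2 fold change of 0.24 (SE 0.0504), which without wild-type replicate 2 was 0.19 and under the threshold, and above heterozygous cells by 0.47 (SE 0.0509).

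*Adgrl2* (ENSMUSG00000028184; chromosome 3, 148815583 to 148990555, minus strand), the most widely expressed latrophilin outside the nervous system, was counted 3259 and 2629 times in the wild-type pair, 3352 and 3763 times in the heterozygous pair and 3017 and 3349 times in the homozygous pair. As CPM these were 110.8 and 102.9, 134.6 and 141.3, and 131.6 and 128.6, so that both deletions lay above wild-type. *Adgrl2* rose in heterozygous cells, where its fitted log2 change was 0.37 (SE 0.0483, 1.29-fold, adjusted p = 5.8e-05 in edgeR and between 3.53e-11 and 0.00694 under its alternatives). In homozygous against wild-type cells its log2 fold change was 0.28 (SE 0.0486). Between the 2 deletions it was -0.085 (SE 0.048, 95% interval -0.19 to 0.016), and it was -0.15 when libraries were scaled by total counts, the one of 14 alternatives in which it was past the threshold.

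*Adgrl3* (ENSMUSG00000037605; chromosome 5, 81020138 to 81825133, plus strand), a brain latrophilin that binds FLRT3 at synapses, was the only tested member with its lowest level in homozygous cells. It was counted 77 and 51 times in the wild-type pair, 50 and 48 times in the heterozygous pair and 34 and 32 times in the homozygous pair, and both homozygous libraries lay below the other 4. Its log2 fold change was -0.78 (SE 0.234, 95% interval -1.27 to -0.29) in homozygous and -0.29 (SE 0.216, 95% interval -0.74 to 0.16, adjusted p = 0.564 in edgeR) in heterozygous against wild-type cells. As a description, the homozygous value was past the threshold of the joint fit, and not past it with DESeq2 at -0.77, without wild-type replicate 1 at -0.56 or without homozygous replicate 2 at -0.65. The heterozygous value was -0.069 without wild-type replicate 1 and -0.46 without wild-type replicate 2.

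**Figure D2:**
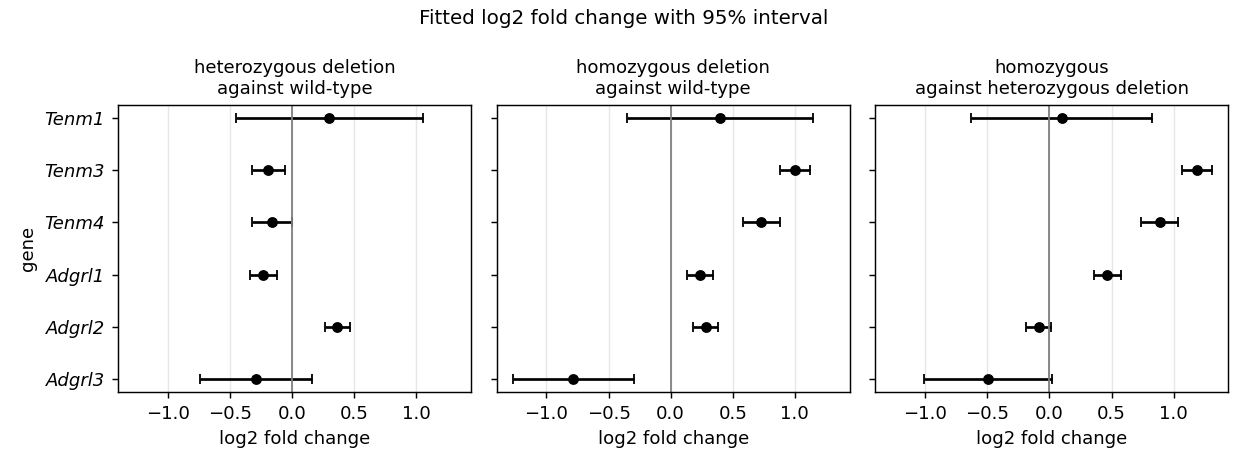
Fitted log2 fold changes of the 6 tested genes in the 3 comparisons, with bars for the 95% interval. In homozygous against wild-type cells *Tenm3* (1.001) and *Tenm4* (0.73) stand to the right and *Adgrl3* (-0.78) to the left, while *Adgrl1* (-0.23) and *Adgrl2* (0.37) lie on opposite sides in heterozygous against wild-type cells.

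Counted over the family, 1 of the 6 tested members rose and 1 fell in heterozygous against wild-type cells at an edgeR adjusted p below 0.05, against a background of 2.23% higher and 2.91% lower among the 16951 genes tested. In homozygous against wild-type cells 4 were higher and 1 lower, and over all tested genes 10.9% were higher and 10.5% lower. In homozygous against heterozygous cells 3 were higher and 0 lower, and 12.9% of all tested genes were called in each direction. With the study's fold threshold added, *Tenm3* was the only member counted, in both comparisons with homozygous cells, where 2.14% and 1.39% of all tested genes were counted, and no member was counted in heterozygous against wild-type cells, where 0.165% were. The 2 comparisons with wild-type cells share the wild-type libraries, and nothing is read from the counts that include homozygous libraries. Scaling by total counts changed the balance of all tested genes to 1183 higher and 2525 lower in homozygous against wild-type cells, from 1847 and 1786, and to 1391 and 3337 against heterozygous cells, from 2191 and 2180. The median log2 fold change of the 6 members was -0.17, 0.34 and 0.28 in the 3 comparisons, and that of all tested genes 0.00, -0.0061 and -0.020.

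Within the families the proportions differed by genotype, and ratios within a library do not depend on its scaling. *Tenm3* made up 75.7% and 75.9% of the summed teneurin level per kb in the wild-type pair, 74.9% and 75.4% in the heterozygous pair and 79.2% and 79.3% in the homozygous pair. *Adgrl1* made up 73.6% in both wild-type libraries, 66.2% and 63.8% in the heterozygous pair and 72.1% and 74.2% in the homozygous pair of the summed latrophilin level per kb. The ratio of *Adgrl1* to *Adgrl2* was 2.84 and 2.84 in the wild-type pair, 1.98 and 1.78 in the heterozygous pair and 2.61 and 2.89 in the homozygous pair. Only the heterozygous libraries stood apart in that ratio, since the homozygous pair spanned the wild-type pair. The size of these shares and ratios depends on the gene length used. Per kb of the longest transcript, mean *Adgrl1* and *Adgrl2* levels were 22.4 and 17.7 CPM in wild-type cells. They were 19.2 and 22.8 in heterozygous and 26.4 and 21.5 in homozygous cells, so *Adgrl1* did not lead in heterozygous cells by that length. The summed receptor level was 6.94 and 6.60 times the summed ligand level in the wild-type pair, 7.36 and 7.42 times in the heterozygous pair and 3.95 and 4.45 times in the homozygous pair. In that ratio the homozygous libraries stood below the other 4. With 2 libraries per genotype these ratios were not tested.

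**Figure D3:**
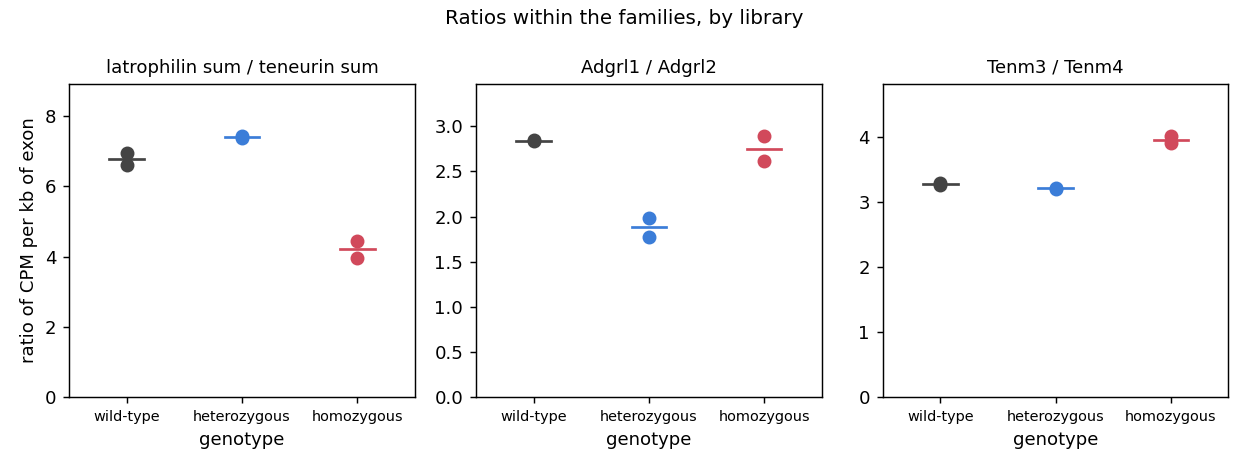
Ratios of levels in CPM per kb of exon, with 1 point per library, a line at the mean and axes from 0. The receptor to ligand ratio is lowest in homozygous libraries (3.95 and 4.45) and the ratio of *Adgrl1* to *Adgrl2* lowest in heterozygous libraries (1.98 and 1.78).

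*Tenm3* and *Adgrl1* both lie on chromosome 8, whose 890 tested genes were shifted as a whole. In homozygous against wild-type cells the median log2 fold change of the chromosome was 0.39, with quartiles at 0.23 and 0.52, while the medians of the other autosomes and X ran from -0.048 to 0.016. *Tenm3* lay 0.61 above that median, with 21 genes of the chromosome higher, and *Adgrl1* lay 0.16 below it (0.24 against 0.39). In heterozygous against wild-type cells the median of the chromosome was -0.12, and *Tenm3* and *Adgrl1* lay at -0.19 and -0.23, below 626 and 702 of its genes. The part of the chromosome's shift in the values of both genes was not tested.

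**Figure D4:**
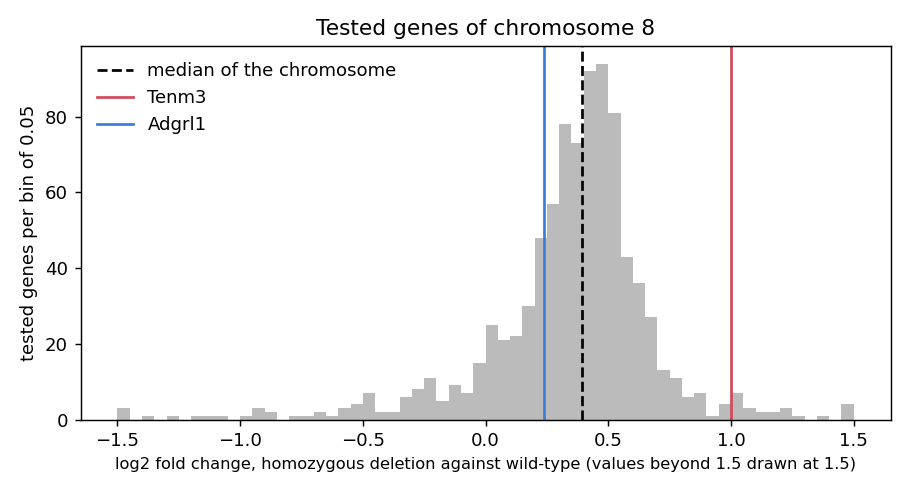
Histogram of the log2 fold change of the 890 tested genes of chromosome 8 in homozygous against wild-type cells, in bins of 0.05. The dashed line marks the median at 0.39, and *Tenm3* at 1.001 lies in the right tail while *Adgrl1* at 0.24 lies near the lower quartile.

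The nearest tested neighbors of *Tenm3* on the side of lower coordinates were *Dctd*, a deoxycytidylate deaminase, *Wwc2*, a Hippo pathway scaffold, and *Cdkn2aip*. Their log2 fold changes in homozygous against wild-type cells were 0.63 (SE 0.0488), 0.50 (SE 0.0449) and 0.53 (SE 0.0631), above the median of the chromosome and under the value of *Tenm3*. On the other side the nearest tested gene, *Gm9892*, starts 3.97 Mb above the lower coordinate of *Tenm3* and was at 0.051 (SE 0.149). Beyond it *1190028D05Rik* was at 0.54 (SE 0.327) and *Aga*, a lysosomal hydrolase, at -0.18 (SE 0.11), the one neighbor of *Tenm3* with a value below 0. Beside *Adgrl1*, *Ddx39* was at 0.52 (SE 0.043), *Asf1b* at 0.43 (SE 0.0583) and *Prkaca* at 0.49 (SE 0.0541). The other adhesion receptor next to it, *Adgre5*, was at -0.27 (SE 0.0817) and *Ptger1* at -0.0080 (SE 0.441). *Adgrl1* was thus lower than 3 of its well-measured neighbors and higher than *Adgre5*. *Gm10644* shares 1107 exon bases with *Adgrl1* on the opposite strand, had at most 28 counts in a library and was at 0.40 (SE 0.337). No other annotated gene with exon bases shared with a member had more than 10.

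**Figure D5:**
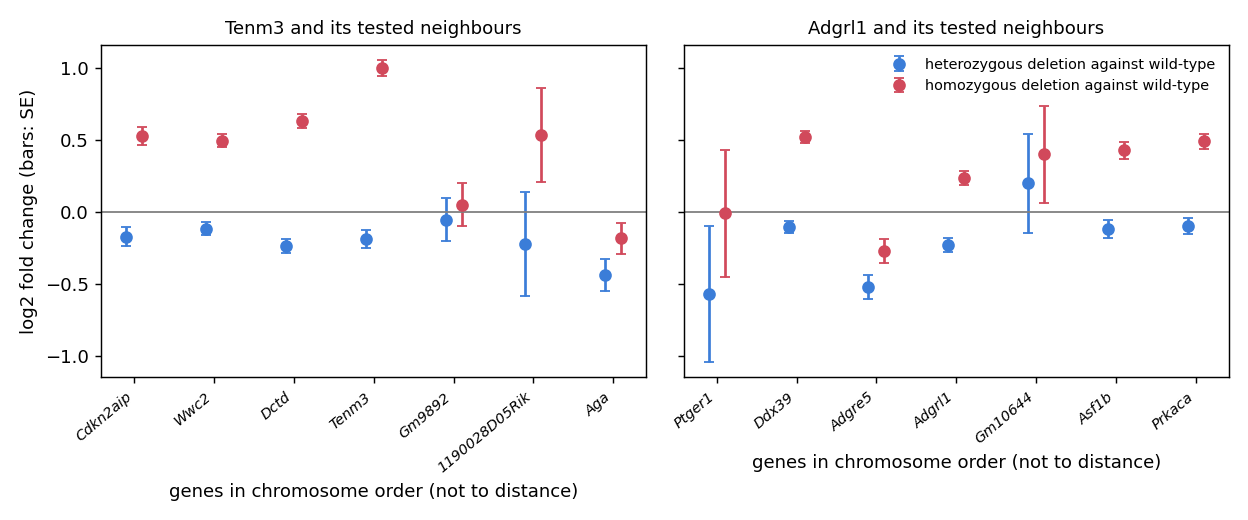
Log2 fold changes with standard errors of *Tenm3*, *Adgrl1* and the 3 tested genes nearest on each side, in chromosome order, for both deletions against wild-type. *Tenm3* (1.001) stands above all 6 of its neighbors in homozygous cells, and *Adgrl1* (0.24) lies between *Adgre5* (-0.27) and *Ddx39* (0.52).

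The genes most alike to a member over the 6 libraries were found by the root mean square difference of centered log2 CPM profiles among 13893 genes with a mean of at least 1 CPM. For *Tenm3* they were *Nrros* on chromosome 16, which tethers latent TGF-beta in myeloid cells, at 0.0886, and *Gm3336* and *Tbc1d9* on chromosome 8 at 0.0946 and 0.110. For *Tenm4*, itself on chromosome 7, all 3 lay on chromosome 8, with *Pdpr*, a regulatory subunit of pyruvate dehydrogenase phosphatase, at 0.0416, *Urb2* at 0.0418 and *Cnot1*, the scaffold of the CCR4-NOT deadenylase, at 0.0438. For *Adgrl3* they were *Ascl2*, a basic helix-loop-helix factor of trophoblast and intestinal stem cells, at 0.0617, the semaphorin *Sema4f* at 0.0685 and the prostaglandin E synthase *Ptges* at 0.0805. The other members did not span more than 0.5 between genotype means or were too low. These likenesses are descriptions of the 6 libraries.

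Among 17 other binding partners of the 2 families, 15 were tested. In heterozygous against wild-type cells 0 rose and 1 fell, against 2.23% and 2.91% of all tested genes. It was *Flrt2*, a latrophilin ligand, at -0.43 on the log2 scale (SE 0.0629, adjusted p = 0.000191 in edgeR). *Flrt2* was counted 1193 and 995 times in the wild-type pair, 714 and 808 times in the heterozygous pair and 409 and 466 times in the homozygous pair. Against wild-type, 0 were higher and 4 lower in homozygous cells, where 10.9% and 10.5% of all tested genes were called, with log2 fold changes of -1.15 (SE 0.0679) for *Flrt2*, -0.98 (SE 0.187) for the netrin and FLRT receptor *Unc5c*, -0.56 (SE 0.169) for the postsynaptic scaffold *Shank1* and -0.20 (SE 0.0466) for *Unc5b*. *Flrt3* was not called, with counts of 187 and 165, 176 and 175, and 124 and 151 by genotype. *Flrt1*, also tested and not called, had at most 23 counts in a library. The median log2 fold change of the 15 genes was 0.051 in heterozygous and -0.078 in homozygous against wild-type cells. *Cntn6* was at 0 counts in all 6 libraries and *Nrxn3* had at most 3.

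Of 27 further adhesion receptors of the same class, 16 were tested. With the same backgrounds, in heterozygous against wild-type cells 0 rose and 1 fell, *Adgre5* (CD97), by 0.52 on the log2 scale (SE 0.0832, adjusted p = 0.000502 in edgeR). Homozygous against wild-type, 2 of the 16 were higher and 3 lower, beside 10.9% and 10.5% of all tested genes. *Adgrg1* (GPR56), a receptor of neural progenitors on chromosome 8, was counted 159 and 142 times in the wild-type pair, 109 and 147 times in the heterozygous pair and 231 and 301 times in the homozygous pair, with a log2 fold change of 0.98 (SE 0.123). *Adgrg5*, also on chromosome 8, was at -1.40 (SE 0.448) and *Adgrg2* at -0.74 (SE 0.214). The counts of *Adgrg5* were low, 24 and 18 in the wild-type pair and 9 and 5 in the homozygous pair. The median of the 16 receptors was -0.10 in heterozygous and -0.012 in homozygous against wild-type cells. *Adgrl4*, a receptor of blood vessels named after the latrophilins, had at most 7 counts in a library.

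Markers of the cell types that the cultures could hold moved between the genotypes. Of 20 fibroblast markers, for feeder cells, 18 were tested, and 13 fell in heterozygous and 16 were lower in homozygous against wild-type cells, with medians of -0.47 and -1.08. Over all tested genes 2.91% fell in the first of these comparisons and 10.5% were lower in the second. The summed level of the 20 markers, most of it from *Fn1*, ran from 2703 to 2819 CPM in wild-type libraries. It ran from 2046 to 2077 in heterozygous and from 1579 to 1580 in homozygous libraries. *Fn1* itself had log2 fold changes of -0.34 in heterozygous and -0.62 in homozygous against wild-type cells. None of the 20 was at 0 in every library of a genotype, and *Fap*, the marker with the fewest counts, was at 0 in 1 homozygous library. The genotype means of *Flrt2* and *Adgrl3* followed the same order, although wild-type and heterozygous libraries overlapped for *Adgrl3*, and those of *Tenm3*, *Tenm4* and *Adgrl2* did not. Of 13 neural markers, 11 were tested, and 5 were higher and 0 lower in homozygous against wild-type cells, with a median of 0.16. Of all tested genes 10.9% were higher and 10.5% lower in that comparison. The 11 genes ran from -0.78 for *Dcx* to 1.39 for the progenitor factor *Sox1*, which lies on chromosome 8. The others called were *Pax6* at 0.92, *Tubb3*, also on chromosome 8, at 0.45, *Stmn2* at 0.34 and *Nes* at 0.16. Among those not called were *Map2* at -0.25 and *Elavl3* at -0.17. The summed neural level, most of it from *Nes* and *Stmn2*, ran from 515.6 to 517.6, 556.7 to 558.8 and 624.1 to 624.3 CPM. None of the 13 was at 0 in any library. The 8 pluripotency markers ran from 2343 to 2406, 2081 to 2121 and 2334 to 2502 CPM in the same order. The 8 primitive endoderm markers ran from 48.0 to 50.1, 52.4 to 54.4 and 43.9 to 45.1. All 8 pluripotency markers were tested, and 0 rose and 5 fell in heterozygous against wild-type cells, with a median of -0.19. Over all tested genes 2.23% rose and 2.91% fell there. In homozygous against wild-type cells 1 was higher and 1 lower, with a median of 0.011. The summed pluripotency level was lowest in heterozygous libraries, as were *Tenm3*, *Tenm4* and *Adgrl1*, while its wild-type and homozygous ranges overlapped. The part of these cell types in the values of the members was not tested.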

How the data were processed

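Polyadenylated RNA of 6 mESC libraries was sequenced. The values the authors deposited are unnormalized read counts, 1 per gene and library. The submitters' processing notes name Trimmomatic 0.39, STAR 2.6.1d, SAMtools 1.9, featureCounts 1.6.4 and DESeq2 1.22.2 with mm10 and GRCm38. The libraries were prepared with a stranded kit, while the annotation release and the strand setting of the counting are not given in the sources used here. edgeR 4.0.16 (R 4.3.3) was run on them after removing genes that did not reach 10 counts in 2 libraries. A single set of TMM factors and a joint quasi-likelihood fit covered all 6 libraries, with Benjamini-Hochberg adjustment over the 16951 tested genes and calls at an adjusted p below 0.05. Standard errors are the fold change divided by the root of the F statistic. Same-genotype libraries differed beyond counting noise (chi-square per degree of freedom 2.21 to 3.38). Gene positions and exon lengths came from GENCODE M21 on GRCm38, the build of the notes, in which 55144 gene identifiers were found, and promoter sequences from RefSeq (GRCm38.p6), in which all 7 members were matched.

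Members and gene lists were chosen with earlier results of these data known. The text names all members, up to 4 called genes with the largest fold changes per list and comparison, the 3 genes most alike to a member, and the 3 nearest tested neighbors of members on chromosome 8. Further genes, such as *Flrt3*, *Adgrl4*, *Cntn6*, *Nrxn3* and the neural markers, were named after their values were seen. Alternatives were each library left out, the fold threshold, robust estimation, a replicate block, fitting only the compared libraries, 2 other filters, total counts, and DESeq2 1.42.0 or its size factors. Intervals and floors cover these libraries and counting error only. Summaries and figures used Python 3.11.15, pandas 2.3.3 and matplotlib 3.10.9.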

Additional observations from a re-analysis of the deposited data

Results flagged for a closer look

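*Tenm3*, *Tenm4* and *Adgrl1* lay, in both heterozygous libraries, below both wild-type libraries and, in both homozygous libraries, above them. The log2 fold change of homozygous against heterozygous cells was 1.19 for *Tenm3*, 0.89 for *Tenm4* and 0.47 for *Adgrl1*. In that comparison the median of the 890 tested genes of chromosome 8 was 0.51. On that chromosome 19 genes lay above *Tenm3* and 496 above *Adgrl1*, so *Adgrl1* was below the chromosome's median. The part of the chromosome's shift in these values was not tested. The families were chosen with homozygous values known, so the values of the 3 flagged genes are descriptions and no p-value is given.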

How the results depend on the processing

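Among the fold changes of members under alternatives, 239 kept their direction and their side of the threshold, 6 were no longer called, 1 became called and 3 changed sign. Those that changed sign were *Tenm1* in homozygous against wild-type cells without homozygous replicate 2 (-0.11), and against heterozygous cells without heterozygous replicate 2 (-0.043) or homozygous replicate 2 (-0.41). With each library left out, these 2 *Tenm1* values ran from -0.11 to 0.74 and from -0.41 to 0.44. The number of members called with each library left out ran from 1 to 2 in heterozygous against wild-type cells, from 4 to 5 in homozygous against wild-type cells and was 3 between the deletions. With the fold threshold it was 0, 1 and 1. With the replicate number as a block it was 2, 5 and 3, as without the block. Libraries with equal numbers did not deviate together over all tested genes (correlations across genes of 0.026, -0.094 and 0.0087). A batch shared by equal numbers in some genes only may not show in these correlations. DESeq2 called 482, 2265 and 2761 of all genes in the 3 comparisons where edgeR called 871, 3633 and 4371, and leaving out a library gave 351 to 1302, 2115 to 3604 and 2903 to 4339. A library left out leaves a genotype with 1 library, which is then assumed to vary like the others. The depth limits *Tenm1* and *Tenm2*. The order of wild-type levels was the same for 7 of 7 members with the longest transcript. In heterozygous cells that length placed *Adgrl2* (22.8 CPM per kb) above *Adgrl1* (19.2), where all exons placed *Adgrl1* first. All 9 most alike genes were shared at a prior count of 0.5.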

Other observations

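Other synaptic adhesion genes were set beside the teneurins and latrophilins. Of 27 listed, 18 were tested. In heterozygous against wild-type cells 1 rose, *Cadm1*, a cell adhesion molecule of the immunoglobulin superfamily, by a log2 fold change of 0.20 (SE 0.0541, adjusted p = 0.0367 in edgeR), and 1 fell, the calsyntenin *Clstn3*, by 0.24 on the log2 scale (SE 0.0628, adjusted p = 0.03 in edgeR). In homozygous against wild-type cells 1 was higher and 6 were lower, among them *Slitrk6* at -1.08 (SE 0.275), *Lrrc4c* at -0.97 (SE 0.268), *Clstn3* at -0.44 (SE 0.0643) and *Cadm4* at -0.41 (SE 0.135). Over all tested genes 2.23% rose and 2.91% fell in the first comparison, and 10.9% were higher and 10.5% lower in the second. The medians were 0.075 and -0.11 on the log2 scale.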
